A study of Homo sapiens with 4 samples.

Results

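Polyamine metabolism in C4-2 cells was read from 10 genes of the gene table: ODC1, AMD1, SRM and SMS of synthesis, AZIN1, OAZ1 and OAZ2 of the control of ornithine decarboxylase, and SAT1, SMOX and PAOX of catabolism. The members were taken by gene symbol, all 10 were found among 27275 rows, and all 10 passed the filter on low counts that left 15840 genes to test. C4-2 is a line derived from LNCaP prostate cancer cells that grows without testicular androgen. The cells were transfected with scrambled siRNA, the control group, or with RRM2 siRNA, a SMARTpool of siRNAs against the small subunit of ribonucleotide reductase. Each group has 2 libraries, made from total RNA of a single cell line, and the knockdown rests on 1 pool. The sources used here give neither the siRNA dose nor the time between transfection and the RNA-seq harvest.

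Polyamines are small positively charged molecules that bind RNA and are needed for growth. Ornithine decarboxylase makes putrescine, and spermidine synthase and spermine synthase lengthen it with aminopropyl groups taken from decarboxylated S-adenosylmethionine. Antizymes bind ornithine decarboxylase and send it to the proteasome, whereas antizyme inhibitors resemble the enzyme and draw the antizymes away. Acetylation by SAT1 starts the breakdown or export of spermidine and spermine. The luminal epithelium of the prostate secretes large amounts of spermine into seminal fluid, androgens raise several of the synthetic enzymes, and MYC is known to drive ODC1.

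The libraries held between 27844121 and 29941671 estimated counts. The share of ribosomal RNA genes was 2.14% for both scrambled siRNA libraries and 2.45% for RRM2 siRNA replicate 1, but 6.13% for RRM2 siRNA replicate 2. Values without the latter library are given where they change a call. RRM2 itself, in TMM-scaled CPM, the counts of a gene relative to its library, stood at 46.3 and 43.0 with scrambled siRNA and at 4.08 and 4.34 with RRM2 siRNA, a difference of -3.41 log2 units (SE 0.08, adjusted p = 2.60e-13 by edgeR). The 8 luminal prostate markers reported were all present, from 317 CPM for the lowest value of HOXB13 to 6227 CPM for the highest of KLK3. Their sum was 11349 and 11856 CPM with scrambled siRNA and 10446 and 10283 CPM with RRM2 siRNA. The part of this lower luminal sum in the results was not tested. The basal markers KRT5 and TP63 and the immune markers PTPRC, CD3E and CD14 stayed under 1 CPM in every library. COL1A1 (32.8 to 39.2 CPM) and VWF (6.66 to 8.15 CPM) were detected although COL1A2, DCN, LUM and PECAM1 were each under 1 CPM.

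With RRM2 siRNA, SAT1 and SMS rose, SRM fell, and the genes of the ornithine decarboxylase step moved by smaller amounts. SAT1, which acetylates spermidine and spermine, increased 1.84-fold. SMS, which makes spermine, increased just over 1.5-fold, and SRM, which makes spermidine, dropped to 0.655 of its control level. Of the 10 members 3 were lower and 4 were higher at an adjusted p under 0.05 from edgeR, where 25.0% of all tested genes were lower and 25.4% higher. With a fold change over 1.5 as well, 1 member was lower and 2 were higher, against 5.25% and 5.90% of all tested genes. The members' median log2 fold change was -0.05, beside 0.00 for all tested genes. By edgeR the counts at the adjusted p alone are near the background, and those past both thresholds rest on 1 and 2 genes. Nothing is therefore read from the list of 10 as a whole, and the genes are described singly. The sources used here do not say whether a group's libraries were grown as separate cultures, so the p-values cover only library-to-library spread, possibly of technical origin. For a single gene, 2 against 2 libraries allow no two-sided exact permutation p below 0.333, so groups without overlap are only described. The share of all tested genes without overlap is not given here. A library holds the RNA of all cells in a dish, and fewer cells with a transcript cannot be told apart from less of it per cell.

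**Figure D1:**
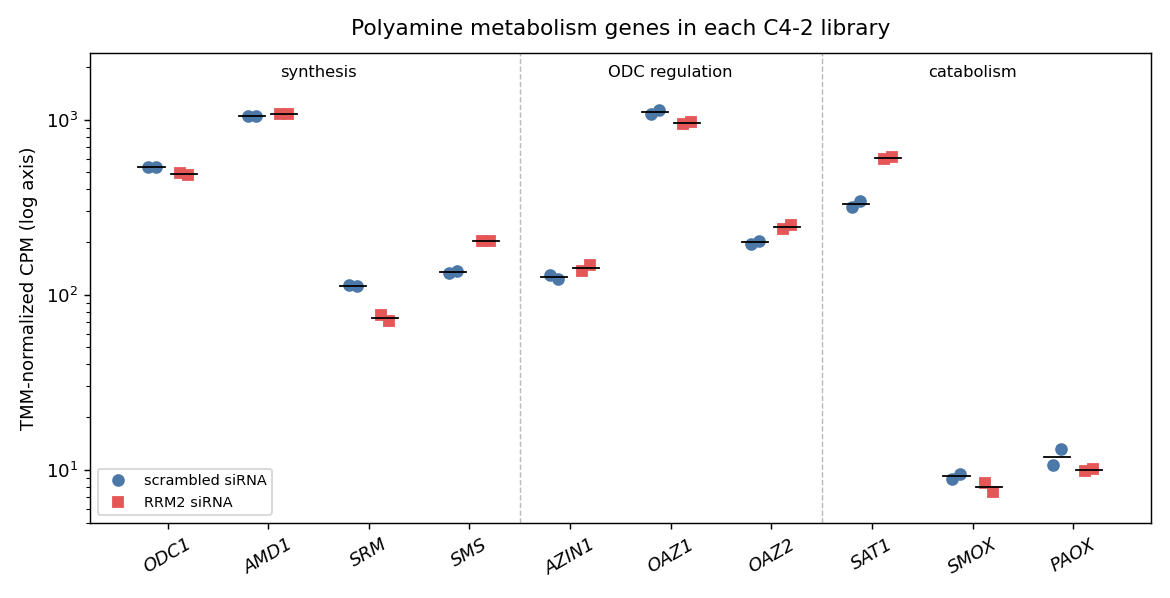
TMM-normalized CPM (log axis) of the 10 polyamine genes in each library, with circles for scrambled siRNA, squares for RRM2 siRNA and a line at each group mean (n = 2). SAT1 and SMS sit higher and SRM lower with RRM2 siRNA, while AMD1 lies between 1044 and 1080 CPM in both groups.

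Ornithine decarboxylase, encoded by ODC1 (chr2:10440371-10448554, minus strand, in the GRCh38 coordinates of the gene table), makes the first committed step. ODC1 had 536 and 535 CPM with scrambled siRNA and 498 and 481 CPM with RRM2 siRNA. Both control libraries were above both knockdown libraries, and the fall was small, with a difference of -0.13 log2 units (SE 0.04, adjusted p = 0.00684 by edgeR). Without RRM2 siRNA replicate 2 the change of ODC1 was -0.11 and no longer passed (adjusted p = 0.145 by edgeR). AMD1 (chr6:110814621-110895712, plus strand), which decarboxylates S-adenosylmethionine to supply the aminopropyl groups, had 1044 and 1053 CPM with scrambled siRNA and 1072 and 1080 CPM with RRM2 siRNA. Its groups did not overlap, but the log2 fold change of 0.04 did not pass (95% interval -0.04 to 0.11, adjusted p = 0.390 by edgeR). AMD1 overlaps CDK19 on the opposite strand, which had 177 and 171 CPM with scrambled siRNA and 154 and 150 CPM with RRM2 siRNA and whose part in the AMD1 values was not tested. The sources used here do not say whether strand was used in counting. AMD1 also has 4 processed pseudogenes in GENCODE v29 that could take or give reads.

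The aminopropyl transferases changed in opposite directions. SRM (chr1:11054592-11060034, minus strand) stood at 113 and 112 CPM with scrambled siRNA and at 76.5 and 70.7 CPM with RRM2 siRNA. The control libraries lay close together and well above both knockdown libraries, a difference of -0.61 log2 units (SE 0.05, adjusted p = 9.24e-08 by edgeR). SMS (chrX:21940573-21994837, plus strand) had 132 and 137 CPM with scrambled siRNA and 203 CPM in both RRM2 siRNA libraries. The rise of 0.59 on the log2 scale (SE 0.04, adjusted p = 1.81e-08 by edgeR) was many times the spread within either group. Both genes lay at the edge of the 1.5-fold threshold. Without RRM2 siRNA replicate 2 the change of SRM was -0.56, and without scrambled siRNA replicate 1 that of SMS was 0.56, each under 1.5-fold but still past the adjusted p. SRM has 2 processed pseudogenes in GENCODE v29, with which it could share reads.

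Within each library the CPM of SMS per kilobase of its transcript was 0.806 and 0.850 times that of SRM with scrambled siRNA and 1.83 and 1.98 times with RRM2 siRNA. These values use the principal GENCODE v29 transcript of each gene. With the merged exons of all annotated transcripts, the ratio was 1.03 and 1.08 in the control libraries and 2.33 and 2.52 in the knockdown libraries. A change of length scales this ratio alike in every library, so the second length is no check on the direction. Which of the pair was the more abundant in the control depended on the length. With 2 libraries a group, the smallest two-sided exact permutation p is 0.333, so such ratios were not tested.

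**Figure D2:**
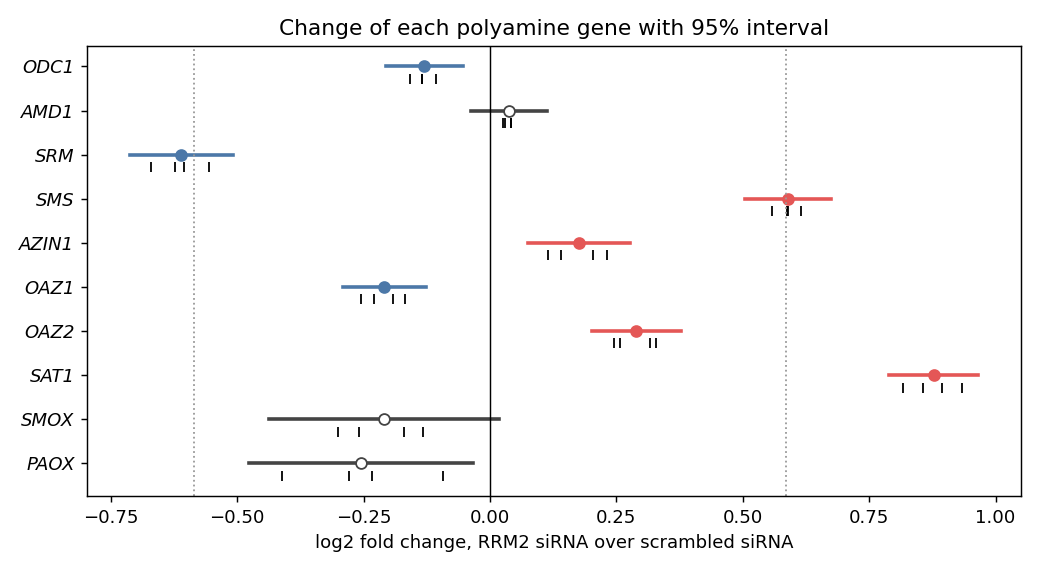
Log2 fold change of each polyamine gene (points) with its 95% interval (bars) from edgeR, filled where the adjusted p was under 0.05, and the values with each library left out in turn (ticks below). Dotted lines mark a fold change of 1.5 either way. SAT1 at 0.88 lies beyond the line with every library left out, and SRM at -0.61 and SMS at 0.59 lie close to it, with values on both sides when libraries were left out.

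The sequence around the start of SRM is shown because it holds the letters CACGTG, the E-box that MYC with MAX is known to bind and that reads the same on both strands. MYC, named with these genes because it is known to regulate several of them, had 276 and 267 CPM with scrambled siRNA and 100 and 101 CPM with RRM2 siRNA, a difference of -1.43 log2 units (SE 0.04, adjusted p = 2.05e-12 by edgeR). The window of ODC1, which fell by 0.13 log2 units, is shown beside it because it holds 2 such E-boxes, in an intron. The window of SAT1, the gene with the largest rise among the members, is shown as one with none. Of the other members searched, all without these letters, OAZ1 fell by 0.21 log2 units. OAZ2 and SMS rose by 0.29 and 0.59, and AMD1 at 0.04 did not pass. The sequences are those of RefSeq on GRCh38.p14, from 250 bases before to 50 bases after a start site, 5′ to 3′ along the gene, with CACGTG in capitals.

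SRM: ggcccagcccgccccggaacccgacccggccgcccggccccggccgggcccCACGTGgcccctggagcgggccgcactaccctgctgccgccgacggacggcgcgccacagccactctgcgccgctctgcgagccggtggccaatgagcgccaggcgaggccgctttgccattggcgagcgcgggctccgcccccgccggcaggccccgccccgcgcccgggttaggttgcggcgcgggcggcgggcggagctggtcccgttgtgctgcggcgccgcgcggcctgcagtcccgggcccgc

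ODC1: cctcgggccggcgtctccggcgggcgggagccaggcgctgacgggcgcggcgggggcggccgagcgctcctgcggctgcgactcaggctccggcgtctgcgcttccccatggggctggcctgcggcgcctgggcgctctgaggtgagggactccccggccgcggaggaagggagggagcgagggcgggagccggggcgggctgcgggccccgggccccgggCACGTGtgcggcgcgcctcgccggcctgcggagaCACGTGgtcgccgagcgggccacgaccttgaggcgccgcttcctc

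SAT1: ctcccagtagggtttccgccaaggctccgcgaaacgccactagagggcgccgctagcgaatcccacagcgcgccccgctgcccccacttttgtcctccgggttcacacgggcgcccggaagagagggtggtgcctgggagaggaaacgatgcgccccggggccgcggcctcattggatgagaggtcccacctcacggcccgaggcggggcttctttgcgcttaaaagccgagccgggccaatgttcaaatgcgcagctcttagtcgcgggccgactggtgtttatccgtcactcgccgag

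In the SRM window, chr1:11059969-11060268 on the minus strand, CACGTG begins at position -199 from the start site and lies upstream of the principal transcript. In the ODC1 window, chr2:10447963-10448262 on the minus strand, it begins at positions -29 and 6 from an inner start site, both within an intron of the principal ODC1 transcript of GENCODE v29. The outer ODC1 window, the 3 windows of AMD1 and those of SMS, OAZ1, OAZ2 and SAT1 (chrX:23782923-23783222, plus strand) do not hold these letters. Of 7 members searched, 2 thus had the E-box, against 12.4% of 11515 tested genes with a window and 7.26% of all 35116 windows. AZIN1, on chromosome 8, was left out of the search, and SMOX and PAOX had no window. The shares over tested genes and over all windows were not limited by chromosome. The match is a description of the sequence, and the part of MYC in these changes was not tested.

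The antizyme genes also moved in opposite directions. OAZ1 (chr19:2269486-2273488, plus strand), the most abundant antizyme transcript, had 1073 and 1138 CPM with scrambled siRNA and 944 and 969 CPM with RRM2 siRNA. Its groups did not overlap, and it fell by 0.21 log2 units (SE 0.04, adjusted p = 3.65e-04 by edgeR). OAZ2 (chr15:64687574-64703281, minus strand), the second antizyme, had 196 and 203 CPM with scrambled siRNA and 237 and 251 CPM with RRM2 siRNA. It rose by 0.29 log2 units (SE 0.04, adjusted p = 3.23e-05 by edgeR), again without overlap between groups. AZIN1 (chr8:102826302-102864200, minus strand), the antizyme inhibitor, had 130 and 124 CPM with scrambled siRNA and 137 and 149 CPM with RRM2 siRNA. It was higher by 0.18 on the log2 scale (SE 0.05, adjusted p = 0.00599 by edgeR), and the call was lost without RRM2 siRNA replicate 2, where the change was 0.11 (adjusted p = 0.109).

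Per kilobase of transcript, OAZ1 outnumbered OAZ2 9.24 and 9.43 times in the scrambled siRNA libraries and 6.71 and 6.51 times in the RRM2 siRNA libraries. The ratio thus fell to 0.708 of its control mean. With merged exons it was 12.2 and 12.5 in the scrambled siRNA libraries and 8.89 and 8.62 in the RRM2 siRNA libraries, so its size depended on the length used. The summed antizyme transcripts were 4.51 and 4.81 times the sum of ODC1 and AZIN1 with scrambled siRNA and 4.36 and 4.58 times with RRM2 siRNA. These ranges overlap, so the transcript balance between antizymes and their partners did not separate the groups. With merged exons the control mean of this ratio was 1.74 and the RRM2 siRNA mean 1.66, again with overlap, so its size depended on the length used. AZIN1 was 0.136 and 0.130 times ODC1 per kilobase with scrambled siRNA and 0.155 and 0.174 times with RRM2 siRNA, without overlap. With merged exons the control mean of AZIN1 over ODC1 was 0.109 and the RRM2 siRNA mean 0.135. Antizyme protein also depends on a ribosomal frameshift that polyamines promote, which transcript counts do not measure.

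**Figure D3:**
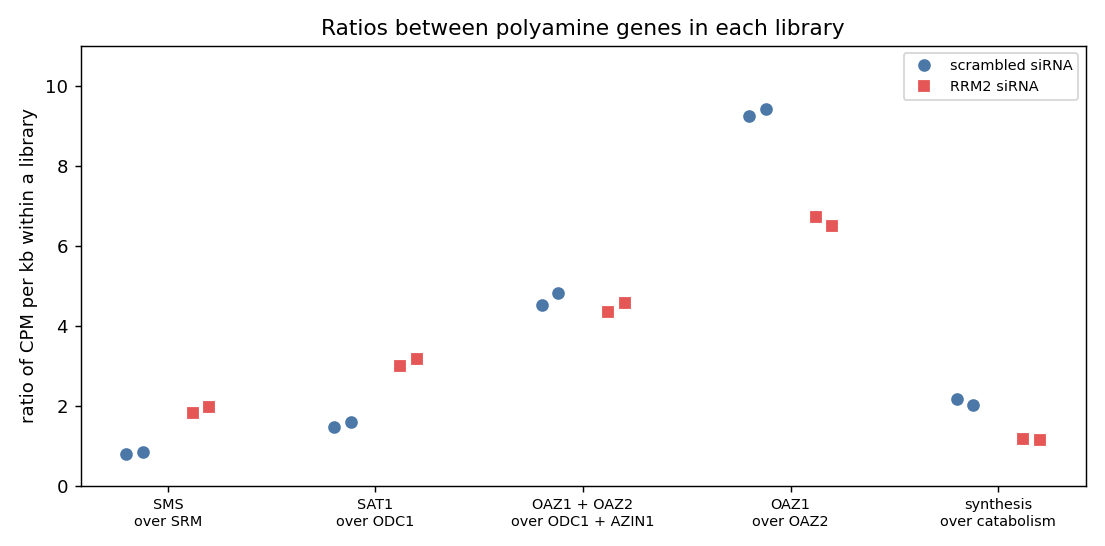
Ratios of CPM per kilobase of principal transcript between polyamine genes within each library, with circles for scrambled siRNA and squares for RRM2 siRNA. SMS over SRM, SAT1 over ODC1, OAZ1 over OAZ2 and synthesis over catabolism separate the groups, and OAZ1 plus OAZ2 over ODC1 plus AZIN1 does not.

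SAT1 (chrX:23783158-23786223, plus strand), the acetyltransferase that starts polyamine breakdown, showed the largest change of the 10. It had 316 and 342 CPM with scrambled siRNA and 597 and 613 CPM with RRM2 siRNA. Each knockdown library was far above each control library, with a difference of 0.88 log2 units (SE 0.04, adjusted p = 5.24e-10 by edgeR), and 96.6% of tested genes had a lower value. Leaving out any library kept the change between 0.82 and 0.93. SMOX (chr20:4148779-4187747, plus strand), the oxidase that turns spermine into spermidine with release of hydrogen peroxide, had 8.92 and 9.47 CPM with scrambled siRNA and 8.40 and 7.47 CPM with RRM2 siRNA. The groups did not overlap, but the log2 fold change of -0.21 did not pass (95% interval -0.44 to 0.02, adjusted p = 0.115 by edgeR). PAOX (chr10:133379237-133391696, plus strand), which oxidizes the acetylated polyamines that SAT1 makes, had 10.6 and 13.2 CPM with scrambled siRNA and 9.80 and 10.1 CPM with RRM2 siRNA. Here too the groups did not overlap, and the log2 fold change of -0.25 (SE 0.10) missed the threshold narrowly (adjusted p = 0.0525 by edgeR) and passed under 6 of 12 alternatives. Without scrambled siRNA replicate 1 the change of PAOX was -0.41 (adjusted p = 0.00213), and without scrambled siRNA replicate 2 it was -0.09 (adjusted p = 0.566). Without RRM2 siRNA replicate 2 it was -0.28 and just passed (adjusted p = 0.0498). Both oxidases had between 212 and 365 counts a library, so their intervals were the widest of the 10 genes.

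SAT1 exceeded ODC1 1.47 and 1.59 times per kilobase with scrambled siRNA and 2.99 and 3.17 times with RRM2 siRNA. With merged exons SAT1 was below ODC1 in the control, at 0.700 and 0.760 times, and above it with RRM2 siRNA, at 1.42 and 1.51 times. The size of this ratio thus depended on the length, whereas its relative rise is the same with any length and was not checked by the second. The sum of the 4 synthesis genes was 2.18 and 2.02 times that of the 3 catabolic genes with scrambled siRNA and 1.18 and 1.13 times with RRM2 siRNA (control mean 3.23 and RRM2 siRNA mean 1.81 with merged exons). Almost all of the catabolic sum is SAT1, so this second ratio follows SAT1 and is not a separate observation.

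**Figure D4:**
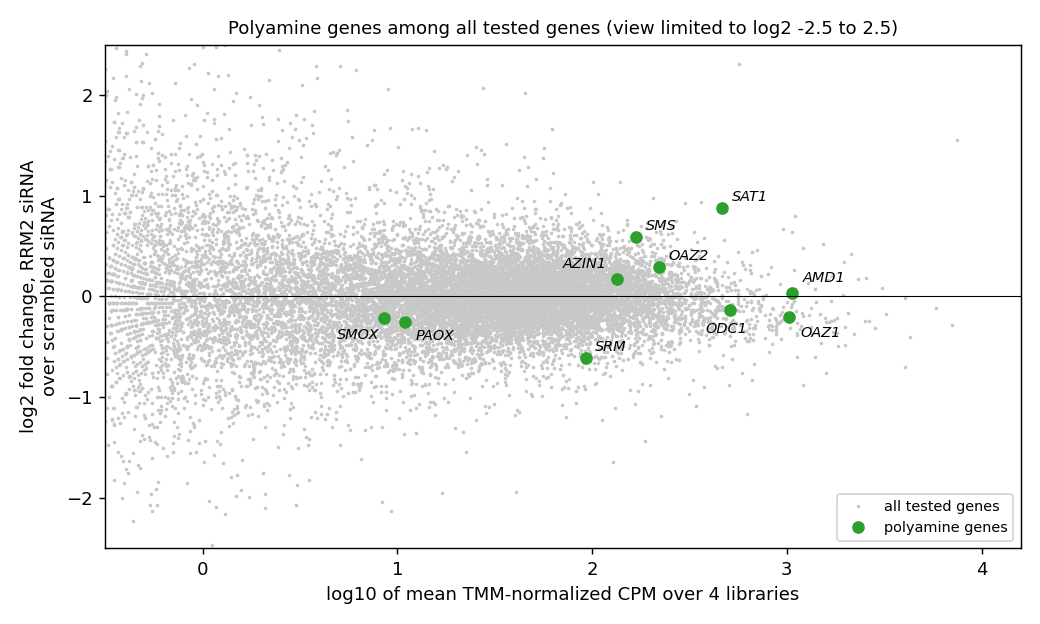
Log2 fold change (RRM2 siRNA over scrambled siRNA) against the log10 of mean CPM for all 15840 tested genes (grey) and the 10 polyamine genes (green), with 128 genes outside the view. SAT1, SMS and SRM had a higher log2 fold change than 96.6%, 92.9% and 5.88% of tested genes. AMD1, OAZ1, ODC1 and SAT1 are among the most abundant transcripts.

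OAZ1 had the highest transcript level of the 10. In CPM per kilobase of the principal GENCODE v29 transcript, the scrambled siRNA means were 963 ± 40.1 (SD, n = 2) for OAZ1, 309 ± 17.3 (SD, n = 2) for SAT1 and 305 ± 1.79 (SD, n = 2) for AMD1. SAT1 and AMD1 did not differ beyond their spread in the control, whereas with RRM2 siRNA SAT1 stood at 568 ± 10.5 (SD, n = 2) and AMD1 at 313 ± 1.68 (SD, n = 2). Below them came ODC1 at 202, OAZ2 at 103, SRM at 88.8, SMS at 73.5 and AZIN1 at 26.8, followed by PAOX at 6.40 and SMOX at 3.96. With RRM2 siRNA, SMS at 111 and SRM at 58.1 exchanged places and the other members kept their rank. The order depends on the transcript length used. With merged exons of all annotated transcripts OAZ1 stayed the highest, but in the control libraries SAT1 came after ODC1 and AMD1, OAZ2 came after SMS and SRM, and SMS already exceeded SRM.

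None of the 10 members carried AAGTCCA or AGTCCAA in a protein-coding transcript of GENCODE v29. These 7-letter words, present in the RRM2 coding sequence and chosen from earlier results of these data, occur in 35.8% of 13741 tested genes with such a transcript. The siRNA sequences of the pool were not used here, and words chosen from these same data make the comparison no test. Any effect of the siRNAs on transcripts other than RRM2 was not tested.

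Around the core pathway, 29 of 34 listed genes could be tested, of which 9 were lower and 6 higher by edgeR at the same adjusted p and 14 missed it. With 25.0% of all tested genes lower and 25.4% higher, these counts are near the background. Their median log2 fold change was -0.07, beside 0.00 for all tested genes. The methionine cycle and the salvage of methylthioadenosine, which supply S-adenosylmethionine and recycle its remnant, had 5 lower, 1 higher and 4 not passing of 10, beside 25.0% lower and 25.4% higher over all tested genes. MAT2A, which makes S-adenosylmethionine, had 165 and 161 CPM with scrambled siRNA and 103 and 99.2 CPM with RRM2 siRNA, a difference of -0.69 log2 units (SE 0.04, adjusted p = 6.40e-09 by edgeR). ADI1, a dioxygenase of the salvage route, fell by 0.37 (SE 0.05, adjusted p = 1.27e-05 by edgeR). MAT2B, a regulatory subunit of the MAT2A enzyme, rose by 0.18 (SE 0.05, adjusted p = 0.00450 by edgeR). The other lower genes of this group were APIP at -0.35, ENOPH1 at -0.22 and MTR, methionine synthase, at -0.13, the last of which missed the threshold in 5 of 12 alternatives. Leaving out scrambled siRNA replicate 1 put MTR at -0.07 (adjusted p = 0.334). Leaving out RRM2 siRNA replicate 1 put it at -0.16 (adjusted p = 0.0537), and leaving out RRM2 siRNA replicate 2 at -0.12 (adjusted p = 0.176). MTAP, the phosphorylase that clears the methylthioadenosine left by SRM and SMS, had a log2 fold change of -0.01 and did not pass (95% interval -0.14 to 0.11, adjusted p = 0.879 by edgeR).

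Of the 3 tested genes around ornithine and agmatine, 2 were higher, beside 25.4% of all tested genes. ARG1, the arginase of the urea cycle, had 1.29 and 1.30 CPM with scrambled siRNA and 3.69 and 4.90 CPM with RRM2 siRNA. The log2 fold change was 1.72 (SE 0.22, adjusted p = 1.05e-05 by edgeR) on 36 to 139 counts a library. ARG1 overlaps MED23 on the opposite strand, which had 45.1 and 41.3 CPM with scrambled siRNA and was higher in both RRM2 siRNA libraries, and its part in the ARG1 values was not tested. ARG2, the mitochondrial arginase, rose from 49.2 and 51.4 CPM to 64.2 and 70.1 CPM, by 0.42 on the log2 scale (SE 0.05, adjusted p = 1.04e-05 by edgeR). MAT2A, ARG2, APIP and DHPS likewise overlap genes on the opposite strand, GGCX, VTI1B, PDHX and WDR83 in that order, each of which had higher CPM in both RRM2 siRNA libraries than in either control library.

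Among 7 tested transport genes, 1 was higher, 1 lower and 5 did not pass, beside 25.4% higher and 25.0% lower over all tested genes. SLC22A3, an organic cation transporter, had 24.3 and 22.8 CPM with scrambled siRNA and 36.0 and 35.9 CPM with RRM2 siRNA (log2 fold change 0.61, SE 0.05, adjusted p = 3.26e-07 by edgeR). SLC18B1, a vesicular polyamine transporter, dropped from 12.9 and 12.8 CPM to 8.46 and 8.14 CPM (log2 fold change -0.63, SE 0.09, adjusted p = 2.88e-05 by edgeR). ATP13A3, a polyamine-transporting ATPase, did not pass at -0.13 (SE 0.06, adjusted p = 0.0579 by edgeR) but passed under 4 of 12 alternatives, the replicate block among them (adjusted p = 0.0160). Its change was -0.04 (adjusted p = 0.536) when scrambled siRNA replicate 1 was left out, whereas leaving out scrambled siRNA replicate 2 gave -0.23 (adjusted p = 5.08e-04).

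Spermidine also serves to make hypusine, a modified lysine of the translation factor EIF5A. Of 5 tested genes around hypusine, 3 were lower, 1 was higher and 1, EIF5A2 at -0.12, did not pass. Over all tested genes 25.0% were lower and 25.4% higher. EIF5A had 280 and 289 CPM with scrambled siRNA and 209 and 206 CPM with RRM2 siRNA, and fell by 0.46 log2 units (SE 0.04, adjusted p = 1.25e-07 by edgeR). EIF5AL1, a near copy of EIF5A with which reads may be shared, fell by 0.43 (SE 0.05, adjusted p = 3.27e-06 by edgeR). DHPS, which performs the first step of hypusine synthesis, fell by 0.17 (SE 0.05, adjusted p = 0.00683 by edgeR), and DOHH, which performs the second, rose by 0.24 (SE 0.07, adjusted p = 0.0103 by edgeR). The DOHH call was lost without RRM2 siRNA replicate 1 (adjusted p = 0.0758) and with DESeq2 (adjusted p = 0.142). Of 4 tested genes among the other antizyme and amine enzymes, 1 was higher and 3 did not pass, beside 25.4% higher over all tested genes. The higher gene was AOC1, the diamine oxidase that breaks down putrescine. It had 5.95 and 6.65 CPM with scrambled siRNA and 10.1 and 9.34 CPM with RRM2 siRNA (log2 fold change 0.63, SE 0.11, adjusted p = 2.54e-04 by edgeR). Those not passing were OAZ3 at 0.20, AZIN2 at -0.22 and SAT2 at 0.02.

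**Figure D5:**
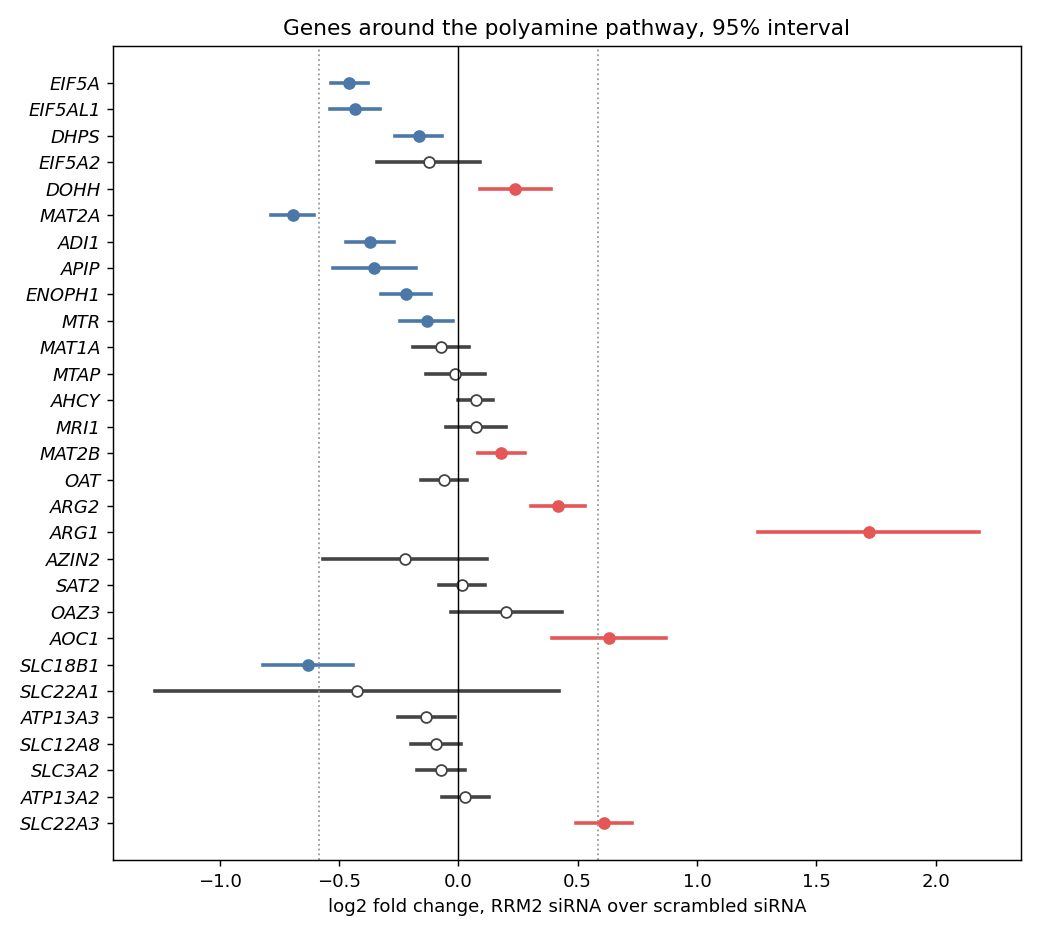
Log2 fold change and 95% interval of 29 tested genes around the polyamine pathway, ordered by group, filled where the adjusted p was under 0.05 and open where it was not. MAT2A at -0.69 and SLC18B1 at -0.63 lie beyond the dotted 1.5-fold line on the left, and ARG1 at 1.72, AOC1 at 0.63 and SLC22A3 at 0.61 on the right.

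The genes most like SAT1 over the 4 libraries were ORM2, GBP2, HIST1H2BD, PLK2 and VCX, by the smallest distance of centred log2 CPM among 12329 other genes whose mean reached 100 normalized counts. Their distances to SAT1 lay between 0.0296 and 0.0505 log2 units and their log2 fold changes between 0.83 and 0.92. With 4 libraries in 2 groups this likeness says little more than that the genes rose by similar amounts. ORM2, HIST1H2BD and VCX belong to families of near-identical genes and are uncertain.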

How the data were processed

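For paired-end RNA-seq of C4-2 cells the authors deposited estimated counts by gene, not normalized, from Partek Flow. Its aligner, annotation and build were not given in the sources used here. Values were rounded before testing. The 27 symbols stored as dates stayed in the fit unnamed. No column of samples was left unused. Genes were filtered with filterByExpr, scaled by TMM and tested in edgeR 4.0.16 (glmQLFit, glmQLFTest, R 4.3.3) over all 15840 genes with Benjamini-Hochberg adjustment. Standard errors were taken as the log2 fold change over the root of F, with 95% intervals from the moderated degrees of freedom, not adjusted for the number of genes. CPM were computed from TMM-scaled library sizes. The code was tested on simulated data. The common dispersion was 0.00150. Chi-square per degree of freedom was 3.66 for the control pair and 35.2 for the knockdown pair over all genes, and 2.95 and 1.98 with structural RNA genes left out, so both pairs differed by more than sampling noise.

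The 12 alternatives changed the tool (DESeq2 1.42.0 or voom in limma 3.58.1), the scaling (size factors of DESeq2, or none beyond library size), the filter (none, or 10 counts per library), added a replicate block, dropped structural RNA genes or left out each library in turn. Named genes were all members, RRM2, MYC, genes of the surrounding lists past both thresholds or among the 2 largest changes of their list in each direction, the 5 genes most like SAT1 and genes between RRM2 and ODC1. MTAP, ATP13A3, DHPS, APIP, ENOPH1, MTR, EIF5A2, OAZ3, AZIN2 and SAT2 were named after their values were seen. The members and lists were chosen with earlier results of these data known. Transcript lengths and words came from GENCODE v29 and start-site sequences from RefSeq (GRCh38.p14). Amino acid sequences were not used here. A further luminal marker, beside the 8 described, is not reported here. Merged-exon lengths were an alternative chosen after seeing the data.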

Additional observations from a re-analysis of the deposited data

How the results depend on the processing

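The counts of members at an adjusted p under 0.05 ranged from 3 to 4 lower and from 3 to 4 higher over the 12 alternatives. With a fold change over 1.5 as well, leaving out single libraries gave 0 to 1 lower and 1 to 2 higher members, and without a filter on low counts 1 member was higher. SRM and SMS are the genes at that edge, and their direction and adjusted p held under every alternative run. Of 120 values for single members under the alternatives, 112 kept their side of the threshold, 2 lost it (ODC1 and AZIN1, both without RRM2 siRNA replicate 2), 6 gained it (all PAOX) and 0 changed direction. The genes around the pathway ranged from 8 to 10 lower and from 5 to 6 higher. Over all 15840 genes DESeq2 called 2761 lower and 2751 higher at the adjusted p, against 3954 and 4029 with edgeR. With the 1.5-fold threshold as well, it called 578 lower and 597 higher, against 831 and 935 with edgeR. The members stayed at 3 lower and 4 higher with DESeq2, so the background shares beside these counts are smaller with that tool. A replicate block gave 4 lower and 4 higher members and changed no other member's call than that of PAOX (adjusted p = 0.0183). Libraries with the same number did not deviate together (Pearson's r = 0.04 across 12330 genes, which are not independent replicates), so the number was not read as a pairing. Depth limits SMOX and PAOX most.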

Other observations

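ODC1 and RRM2 lie on the short arm of chromosome 2 and are known to be amplified together in cells selected with hydroxyurea. In the coordinates of the gene table, which are those of GRCh38, RRM2 ends at 10131419 and ODC1 spans 10440371 to 10448554, with 308951 bases between them. HPCAL1, a calcium-binding protein gene next to ODC1, had 41.2 and 42.5 CPM with scrambled siRNA and 40.7 and 43.3 CPM with RRM2 siRNA, and its groups overlapped. Its log2 fold change was 0.00 (SE 0.05, adjusted p = 0.948 by edgeR). C2orf48, the first gene past RRM2, had 12 and 10 counts in the control libraries and 4 and 1 in the knockdown libraries (log2 fold change -2.15, SE 0.59, adjusted p = 0.00665 by edgeR). That call had an adjusted p of 0.0617 when scrambled siRNA replicate 1 was left out and of 0.0993 when RRM2 siRNA replicate 2 was, and DESeq2 gave no adjusted p for it.

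Of the listed genes around the pathway, AGMAT, ATP13A4, SLC22A2, SLC22A16 and SATL1 were too low to test, with between 0 and 11 counts a library.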
